A study of Mus musculus with 4 samples.

Results

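The Cyp2d genes encode cytochrome P450 enzymes of the endoplasmic reticulum, and 4 of them, Cyp2d9, Cyp2d10, Cyp2d22 and Cyp2d26, were examined in mouse liver. The 4 genes were chosen because Cyp2d signals had been found lower in null liver than in control liver on these same arrays, so their differences are given below as a description and not as a test. Probe sets were taken by gene name from the annotation of the Affymetrix MG_U74Av2 array, which measures each transcript with a set of short oligonucleotides. Of the 4 genes, 3 were named by at least 1 probe set, and the array annotation covered 8251 singly named genes in all. Cyp2d22 has no probe set in the annotation and was not analysed here. The 3 measured genes had 5 probe sets among 12422, namely 94540_at for Cyp2d26, 101287_s_at and 98612_at for Cyp2d10, 162174_at for Cyp2d9, and 94539_f_at, which is shared between Cyp2d12 and Cyp2d9 and is therefore called by both names.

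The arrays carried liver RNA of hepatic reductase null mice, replicates 7 and 8, and of control mice, replicates 7 and 8, 2 arrays each. By its name this is the line that lacks NADPH-cytochrome P450 oxidoreductase (Por) in liver, the flavoprotein from which microsomal P450 enzymes receive their electrons. Per the labels, RNA of 3 animals of a genotype was pooled for each experiment, while the control titles speak of a mouse, so the number of animals behind an array is not settled. The labels used here name no allele, Cre driver, strain, sex or age, and no probe set was named Por, so the genotype could not be checked against its own transcript.

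P450 enzymes insert oxygen into drugs, steroids and fatty acids, and those of the endoplasmic reticulum depend on the reductase for electrons. The mouse Cyp2d genes form a cluster related to human CYP2D6, an enzyme that oxidises many drugs in human liver. Cyp2d9 encodes a testosterone hydroxylase of male mouse liver whose expression depends on growth hormone. Cyp2d22 is often set beside human CYP2D6. HNF4A, a nuclear receptor of hepatocytes, is known to activate CYP2D6 in human liver cells.

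In the GRCm38.p6 gene table the 8 protein-coding Cyp2d genes lie on mouse chromosome 15 within chr15:82370527-82794452, a span of 424 kb, interspersed with pseudogenes. Cyp2d22 stands at one end (chr15:82370527-82380260) and Cyp2d26 at the other (chr15:82790107-82794452, minus strand). Cyp2d10 lies at chr15:82402845-82407253 on the minus strand, Cyp2d9 at chr15:82452377-82456827 on the plus strand and Cyp2d12 at chr15:82555043-82559413. No probe set was named for Cyp2d11, Cyp2d34, Cyp2d40 or Cyp2d13 alone. Transcripts of such closely related genes can bind one another's probes, and the names ending in _s_at and _f_at mark probe sets that the manufacturer expected to match more than one transcript. The probe sequences were not used here, so the share of each Cyp2d transcript in a signal is uncertain.

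The promoters of the 3 measured genes are printed because their signals were compared together. Each RefSeq window (GRCm38.p6) runs 5′ to 3′ from 250 bases before to 50 bases after the transcript start that the table uses, at chr15:82794196-82794495 (minus strand) for Cyp2d26, chr15:82407145-82407444 (minus strand) for Cyp2d10 and chr15:82452127-82452426 (plus strand) for Cyp2d9. Capitals mark matches to CAAAGNNCA, a loose form of the core bound by HNF4A, to the TATA-type element TTTATAA, and to CCGGAA, the core of sites for ETS factors such as GABP, each read on both strands.
Cyp2d26: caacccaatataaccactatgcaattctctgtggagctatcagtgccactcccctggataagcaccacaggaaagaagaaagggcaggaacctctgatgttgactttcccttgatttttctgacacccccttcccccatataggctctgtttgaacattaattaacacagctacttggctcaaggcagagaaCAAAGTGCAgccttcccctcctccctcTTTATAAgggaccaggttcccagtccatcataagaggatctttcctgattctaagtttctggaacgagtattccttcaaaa
Cyp2d10: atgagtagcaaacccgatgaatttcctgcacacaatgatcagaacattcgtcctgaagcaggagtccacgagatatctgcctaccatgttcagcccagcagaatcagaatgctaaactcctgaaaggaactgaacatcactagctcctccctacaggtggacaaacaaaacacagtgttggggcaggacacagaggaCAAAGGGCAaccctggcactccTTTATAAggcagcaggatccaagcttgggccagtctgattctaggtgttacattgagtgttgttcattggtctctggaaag
Cyp2d9: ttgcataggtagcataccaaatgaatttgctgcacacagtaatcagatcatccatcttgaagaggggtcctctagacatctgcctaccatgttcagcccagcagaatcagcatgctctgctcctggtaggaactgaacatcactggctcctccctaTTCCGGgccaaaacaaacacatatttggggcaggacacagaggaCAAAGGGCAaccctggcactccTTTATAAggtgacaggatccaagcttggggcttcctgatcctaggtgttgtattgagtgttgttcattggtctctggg

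All 3 windows held CAAAGNNCA, as CAAAGTGCA beginning 58 bases before the start in Cyp2d26, as CAAAGGGCA 53 bases before it in Cyp2d10 and as CAAAGGGCA 50 bases before it in Cyp2d9. Each held TTTATAA downstream of that match, beginning 31, 31 and 28 bases before the start in the same order of genes. Of the 3 windows, that of Cyp2d9 alone held CCGGAA, on the opposite strand, beginning 94 bases before the start. Among all 32851 promoter windows of this length in the table, 6.36% held CAAAGNNCA, 4.01% held TTTATAA and 14.9% held CCGGAA. TTGCNNAA, a C/EBP-type motif found in 10.8% of all windows, and TTCNNNGAA, a STAT5-type motif found in 8.30%, had no match in these windows. The matches to different motifs do not overlap. The windows of Cyp2d11 and Cyp2d40, neighbours with no probe set of their own, also held CAAAGGGCA, beginning 65 and 113 bases before the start, and TTTATAA. In global alignments the Cyp2d10 and Cyp2d9 windows were identical at 82.9% of aligned columns, the Cyp2d26 window matched that of Cyp2d10 at 50.3% and that of Cyp2d9 at 50.7%. The motifs were picked after the sequences had been seen, and a match describes letters only.

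All 4 bright Cyp2d probe sets had lower signals on both null arrays than on both control arrays, and the difference was largest for Cyp2d26. The dim probe set named for Cyp2d9 alone did not separate the genotypes. The values below are the deposited signals, on a linear scale without a unit, and levels of different probe sets cannot be set against each other.

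Cyp2d26 gave signals of 2228.1 and 2131.1 on null replicates 7 and 8, against 3443.7 and 3202.3 on control replicates 7 and 8. Both null arrays lay below both control arrays, and the gap between the genotypes was wider than that within either. The mean signal was 2180 ± 68.6 in null liver and 3323 ± 171 in control liver (SD, n = 2 each). The log2 difference, null minus control, was -0.61 ± 0.08 (SE), which places the null signal at 65.6% of control. The difference ran between -0.69 and -0.52 over the 4 pairings of a null with a control array, while the null arrays differed from each other by 0.06 and the control arrays by 0.10 on the log2 scale.

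Cyp2d10 was read by 2 probe sets, which gave similar differences. On 101287_s_at its signals were 4345 and 4443.7 on null replicates 7 and 8, against 5360.7 and 5346.5 on control replicates 7 and 8. On 98612_at they were 1856.4 and 1907.7 on the null arrays, against 2315.5 and 2173.2 on the control arrays. The genotypes did not overlap on either probe set. The log2 difference was -0.28 ± 0.06 (SE) on 101287_s_at, or 82.1% of control, and -0.25 ± 0.08 (SE) on 98612_at, or 83.9% of control. Mean signals were 4394 ± 69.8 in null and 5354 ± 10.04 in control liver on 101287_s_at, and 1882 ± 36.3 in null and 2244 ± 101 in control liver on 98612_at (SD, n = 2 each). The array pairings gave -0.30 to -0.27 on 101287_s_at and -0.32 to -0.19 on 98612_at, so the 98612_at estimate was the less sharp of the pair. The control arrays differed from each other by 0.09 on the log2 scale on 98612_at.

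The probe set shared by Cyp2d12 and Cyp2d9 gave 4222.6 and 4369.7 on null replicates 7 and 8, against 4796.7 and 4790.2 on control replicates 7 and 8. Here too both null arrays lay below both control arrays, and on the log2 scale the difference was the smallest of the 4 bright probe sets. Its mean signal was 4296 ± 104 in null liver and 4793 ± 4.60 in control liver (SD, n = 2 each). The log2 difference was -0.16 ± 0.06 (SE), or 89.6% of control, and the array pairings gave -0.18 to -0.13. Which of the Cyp2d transcripts carried this difference cannot be told apart with this probe set.

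Cyp2d9, on the probe set 162174_at that carries its name alone, gave 121.9 and 77.4 on null replicates 7 and 8, against 65.7 and 176.2 on control replicates 7 and 8. The genotypes overlapped completely, with the lowest and the highest signal both on control arrays. Its mean signal was 99.7 ± 31.5 in null liver and 121 ± 78.1 in control liver (SD, n = 2 each). The log2 difference was -0.15 ± 0.45 (SE), and single pairings of arrays ran from -1.19 to 0.89. The control arrays differed 2.68-fold and the null arrays 1.57-fold on this probe set, so a difference of the size seen for Cyp2d26 would not have been detectable here. For the 4 bright probe sets a lower signal in null liver restates how the genes were chosen, and 162174_at did not separate the genotypes.

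**Figure D1:**
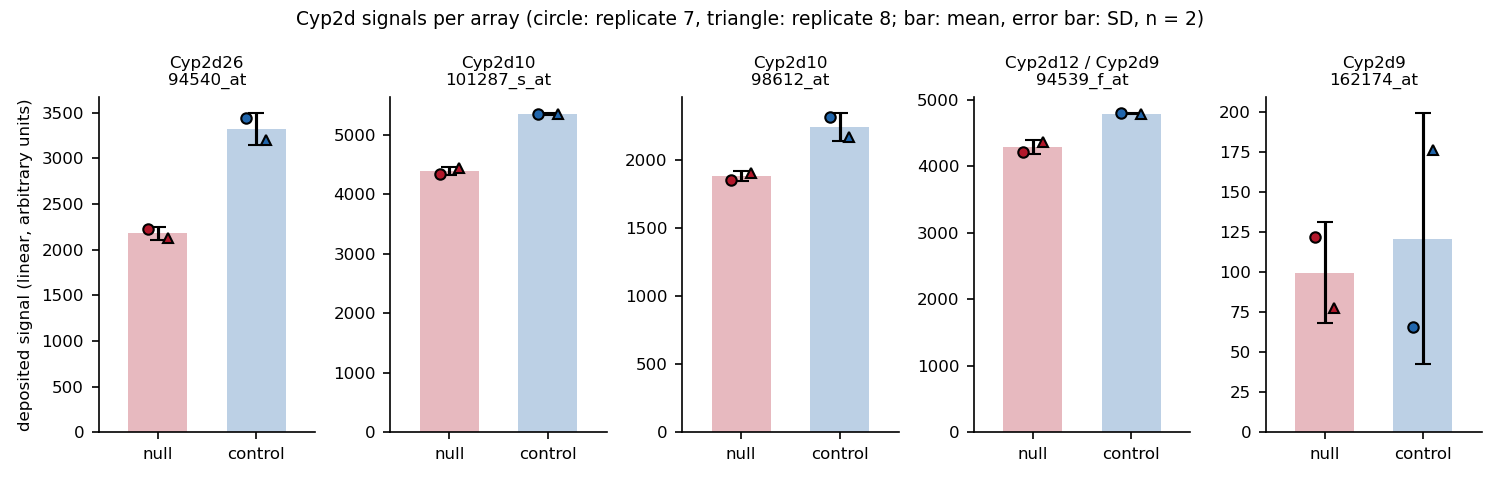
Deposited signal (linear scale, arbitrary units) of each Cyp2d probe set in null (red) and control (blue) liver, with 1 point per array, bars for the mean and error bars for the SD (n = 2). On 4 of the 5 probe sets both null arrays lie below both control arrays, while those of 162174_at (Cyp2d9) overlap.

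The size of these differences can be read against the whole array. All 5 Cyp2d probe sets passed the filter on dim signals and were among the 7241 tested, whose median log2 difference was -0.01, against a median of -0.25 over the 5 Cyp2d probe sets. Both null arrays lay below both control arrays on 4 of the 5 Cyp2d probe sets, and on 23.4% of all tested probe sets. At an adjusted p under 0.05 in limma, 1 of the 5 was lower (Cyp2d26), against 0.0829% of all tested probe sets. Since the genes were chosen on this contrast, nothing is read from either count.

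Among the 409 tested probe sets with a mean signal of at least 1000, where 4 of the 5 Cyp2d probe sets lie, both null arrays were below both control arrays on 32% and the median log2 difference was -0.01. That signal limit was chosen after the values were seen. Of these 409, 8 had a lower log2 difference than Cyp2d26. For Cyp2d10 the corresponding numbers were 47 on 101287_s_at and 56 on 98612_at, and for the shared Cyp2d12 and Cyp2d9 probe set it was 87. The Cyp2d26 difference lay near the low end of bright probe sets, with 1.96% of them below it, against 11.5%, 13.7% and 21.3% below the others in the same order. Because the genes were chosen as lower on these arrays, nothing is read from these ranks.

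**Figure D2:**
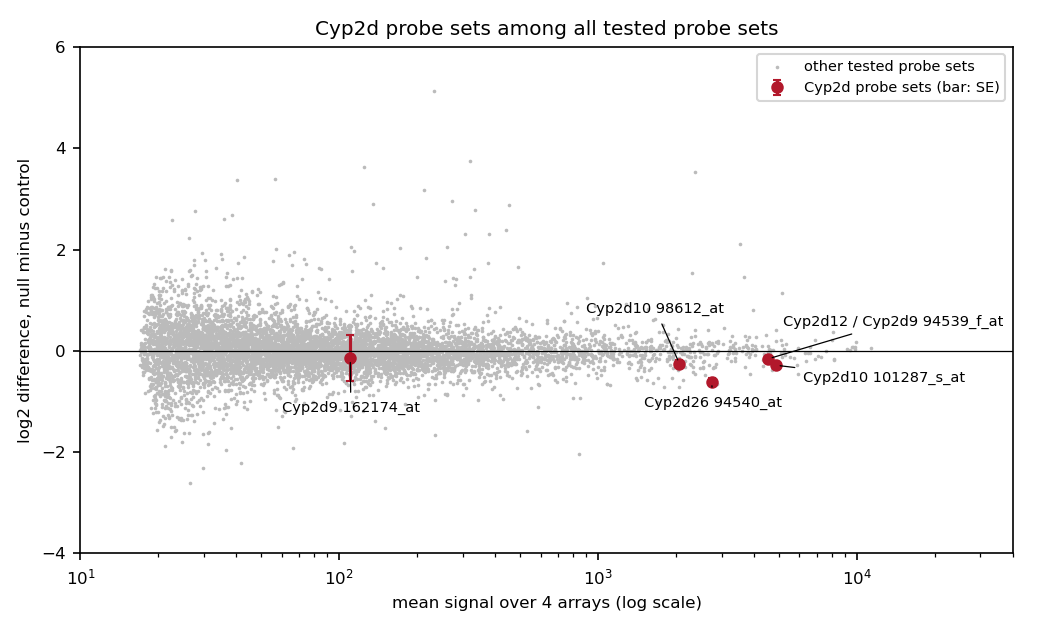
Log2 difference, null minus control, against mean signal over the 4 arrays (log scale) for the tested probe sets, with the Cyp2d probe sets in red and their SE as bars. Cyp2d26, at -0.61, lies below nearly all probe sets of similar signal, and the SE of Cyp2d9 on 162174_at spans 0.

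Arrays with the same replicate number can also be set side by side, although the number is not known to mark a shared experiment. For Cyp2d26 the log2 difference was -0.63 between the arrays numbered 7 and -0.59 between those numbered 8. For Cyp2d10 it was -0.30 and -0.27 on 101287_s_at, and -0.32 and -0.19 on 98612_at. The shared Cyp2d12 and Cyp2d9 probe set gave -0.18 and -0.13. These probe sets were lower in null liver in both comparisons, which follows from the lack of overlap between the genotypes. Cyp2d9 on 162174_at was higher in null liver between the arrays numbered 7 (0.89) and lower between those numbered 8 (-1.19). Its lowest signal was 9.25 times the floor of 7.1 below which signals were not read, whereas the lowest signal of Cyp2d26 was 300.2 times that floor, so neither was set by the floor.

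Within the family the differences were unequal. The log2 difference of Cyp2d26 was lower than that of Cyp2d10 by 0.32 on 101287_s_at and by 0.35 on 98612_at, and lower than that of the shared Cyp2d12 and Cyp2d9 probe set by 0.45. The Cyp2d10 probe sets differed from each other by 0.03. The array pairings of Cyp2d26 did not overlap with those of Cyp2d10 or of the shared probe set.

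Leaving out 1 array kept the sign of the 4 bright probe sets and not that of Cyp2d9. For the 4 bright probe sets this had to be so, since both null arrays lay below both control arrays. Cyp2d26 ranged from -0.66 to -0.56, Cyp2d10 from -0.30 to -0.27 on 101287_s_at and from -0.30 to -0.21 on 98612_at, and the shared Cyp2d12 and Cyp2d9 probe set from -0.18 to -0.13. On 162174_at the Cyp2d9 difference was 0.56 without control replicate 8 and 0.18 without null replicate 8, against -0.86 without control replicate 7 and -0.48 without null replicate 7. Cyp2d9 on its own probe set therefore has no settled direction.

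The scaling of the arrays moved the values. With each array divided by its median signal, Cyp2d26 stood at -0.68 and the Cyp2d10 probe sets at -0.36 (101287_s_at) and -0.32 (98612_at). With each array divided by the geometric mean of 10 hepatocyte markers, a setting added after the data were seen, Cyp2d26 stood at -0.50, Cyp2d10 at -0.18 (101287_s_at) and -0.15 (98612_at), and the shared Cyp2d12 and Cyp2d9 probe set at -0.052. In that setting the median log2 difference of all tested probe sets was 0.10, which is 0.11 above that with the signals as deposited.

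**Figure D3:**
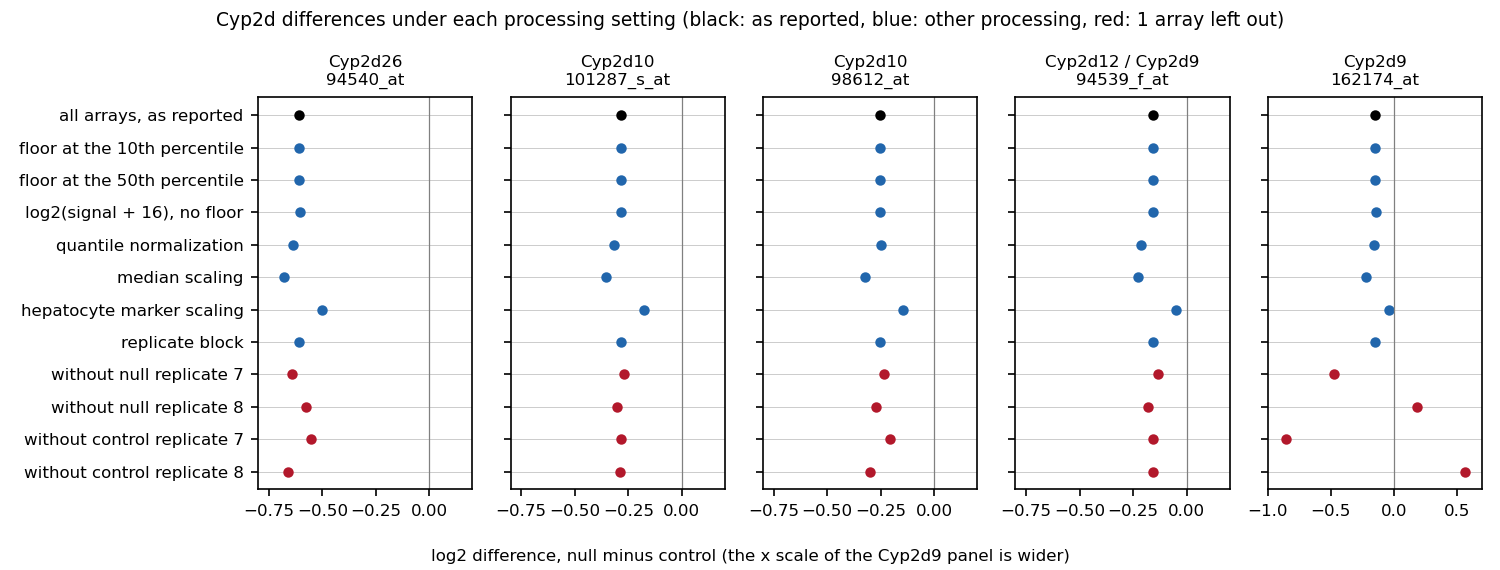
Log2 difference, null minus control, of each Cyp2d probe set with all arrays (black), under other processing (blue) and with 1 array left out (red). The values of the 4 bright probe sets stay below 0 in every setting shown, from -0.05 for the shared probe set to -0.68 for Cyp2d26, while those of Cyp2d9 on 162174_at run from -0.86 to 0.56. For the 4 bright probe sets only quantile normalization and the scalings could have reversed the sign.

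In bulk liver, fewer cells of a type and less RNA per cell cannot be told apart. Of 10 measured hepatocyte markers 0 passed in limma and their median log2 difference was -0.01, but 5 had both null arrays below both control arrays, against 23.4% of all tested probe sets. Albumin (Alb) gave 9809.2 and 9108.7 in null liver, against 8991 and 9729 in control liver, a log2 difference of 0.02. The 5 lower markers were Ttr (-0.63), Fgb (-0.38), Tdo2 (-0.38), Tat (-0.20) and Cps1 (-0.04). The other 5 were Alb, Apoa1 (0.03), Apoa2 (0.07), Hpd (0.17) and Ass1 (0.28), of which Hpd and Ass1 were read on dim probe sets. Over the list the summed signal was 37675 and 35295 in null liver, against 38841 and 38722 in control liver. Of 11 tested Kupffer cell and macrophage markers 1 rose (Mpeg1, log2 difference 1.38 ± 0.14, SE, adjusted p = 0.0210), against 0.304% of all tested probe sets. Of the 11, 8 had no overlap between genotypes, all of them higher, against 20.4% of all tested probe sets. Mpeg1 did not pass without any 1 of the 4 arrays (adjusted p between 0.0700 and 0.118). The summed signal was 2426 and 2675 in null liver, against 1942 and 1884 in control liver. The 8 stellate cell and fibroblast markers summed to 1422 and 1652 in null liver, against 1115 and 1145 in control liver, with 0 past the threshold in limma. Pancreatic acinar markers were raised on null replicate 7 alone, where 5 of them summed to 2810, against 229 on null replicate 8 and 247 and 353 on the control arrays. Without that array the Cyp2d26 difference was -0.64 and the Cyp2d10 differences were -0.27 and -0.23. The part of hepatocyte, macrophage and stellate cell markers in the Cyp2d differences was not tested.

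Genes around the cluster were examined because the Cyp2d genes share 1 stretch of chromosome 15. Of the 3 nearest tested genes on either side, 0 of 6 passed in limma. Before the cluster, Ndufa6, a complex I subunit, was at -0.20 ± 0.14, Smdt1, of the mitochondrial calcium uniporter, at 0.12 ± 0.10 and Xrcc6, a DNA repair protein, at 0.01 ± 0.34 (log2 difference, SE). After it, Tcf20 was at 0.20 ± 0.30, Rrp7a at 0.78 ± 0.26 and Poldip3 at -0.36 ± 0.19, so signs differed on both sides of the Cyp2d genes.

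Transcription factors linked to Cyp2d or to liver gene expression did not pass the test. Of 15 tested, 0 rose, 0 fell and 15 did not pass in limma, while 12 had a negative difference and 11 had both null arrays below both control arrays, against 23.4% of all tested probe sets. Hnf4a gave 77 and 194.6 on null replicates 7 and 8, which bracketed 103.2 and 116.3 on the control arrays, a log2 difference of 0.16 ± 0.40 (SE) with no settled direction. Cebpa, a bright hepatocyte factor, gave 2538.3 and 2473.7 on the null arrays, against 3178.9 and 3065.3 on the control arrays (log2 difference -0.32 ± 0.07, SE, adjusted p = 0.141). Nr0b2, a repressor known to lower CYP2D6 promoter activity in humanised mice, gave 64.4 and 10 on the null arrays, against 100 and 91.2 on the control arrays (adjusted p = 0.365). The other log2 differences were -0.66 for Nr2f2, 0.21 for Cebpb, 0.77 for Cebpd, -0.42 for Klf9 (0.22 on another probe set), -0.64, -0.35 and -0.27 for Foxa1, Foxa2 and Foxa3, -0.35 for Onecut1, -0.70 for Tfcp2, -0.15 for the bile acid receptor Nr1h4, and -0.31 and -0.60 for the GABP subunits Gabpa and Gabpb1. Nr2f1 and Ppargc1a were too dim to be tested.

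Growth hormone signalling, on which Cyp2d9 is known to depend in male liver, showed no gene past the threshold in limma among 11 tested. Both null arrays lay below both control arrays for 5 of the 11, against 23.4% of all tested probe sets. Both lay above for 1, against 20.4%. The receptor Ghr was at -0.28 ± 0.10 (0.12 on another probe set), the transcription factor Stat5b at 0.86 ± 0.47 on a dim probe set, the repressor Bcl6 at -0.50 ± 0.15 and the target Igf1 at -0.01 ± 0.11 (log2 difference, SE). The remaining log2 differences were -0.05 for Jak2, -0.04 for Stat5a, 0.28 for Socs2, -0.48 for Socs3 (-1.60 on another probe set), -0.58 for Cish, -0.30 for Igfals and 0.43 for Igfbp3 (-0.41 on another probe set). Of 8 tested male-biased liver genes other than Cyp2d9, 1 fell, Cyp7b1 (log2 difference -0.94 ± 0.10, SE, adjusted p = 0.0210), against 0.0829% of all tested probe sets. Another Cyp7b1 probe set was at -1.11 (adjusted p = 0.0322 in limma). The median log2 difference of the 8 was -0.12. Of them 4 had both null arrays below both control arrays, against 23.4% of all tested probe sets, and 1 had both above, against 20.4%. Cyp7b1, an oxysterol hydroxylase, did not pass without any 1 of the 4 arrays (adjusted p between 0.0681 and 0.150). Beside it Hsd3b5 was at -2.03 ± 0.40, Gstp1 at -0.19 ± 0.06 and Egfr at -0.35 ± 0.11 (0.31 and -0.66 on other probe sets). Of 10 measured female-biased genes, 5 were too dim to be tested and 0 of the 5 tested passed in limma. The median log2 difference of those tested was 1.24, that of Abcd2. Abcd2 gave 34.7 and 40.9 on the null arrays, against 11.1 and 22.8 on the control arrays. The filter was on the mean of all arrays, so dim genes passed it more easily when higher in null liver. Nothing is read from this median. Cyp3a16 (1.74), Abcd2 (1.24) and Ddc (0.41) had the smallest p.

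Other enzymes and partners of the P450 system ran in both directions. Of 20 tested P450 genes of families 1 to 4 outside the Cyp2d group, 2 rose, 0 fell and 18 did not pass, while 0.304% of all tested probe sets were called higher. The median log2 difference of the 20 genes was 0.26. Both that rose are drug-inducible, Cyp3a11 (0.81 ± 0.08, adjusted p = 0.0210) and Cyp2b10 (5.14 ± 0.55, adjusted p = 0.0253). Cyp2b10 gave 265.8 and 638.3 on the null arrays, against 3.1 and 19.3 on the control arrays, and since 3.1 lies under the floor of 7.1 its difference depends on the floor. The call of Cyp2b10 ended with the floor at the 10th percentile (5.73, adjusted p = 0.0623) and without null replicate 7 or 8, and that of Cyp3a11 ended without null replicate 8 or either control replicate. Cyp4v3 (-0.66), Cyp2f2 (-0.48) and Cyp2c29 (1.64) did not pass. Tested probe sets shared by several of these P450 genes were not counted, such as that of Cyp2a5 and Cyp2a4 and that of Cyp3a16 and Cyp3a11. The shared Cyp2d12 and Cyp2d9 probe set, in contrast, was kept in the Cyp2d group. Of 6 tested electron partners 0 passed in limma, with cytochrome b5 (Cyb5a) at 0.11 ± 0.07, Cyb5b at -0.20 ± 0.10 (0.55 on another probe set), Cyb5r3 at -0.05 ± 0.08, Pgrmc1 at 0.13 ± 0.08, Pgrmc2 at 0.34 ± 0.31 and Fdx1 at 0.17 ± 0.08 (log2 difference, SE). Of 24 tested HNF4A target genes 1 rose, 0 fell and 23 did not pass in limma, with a median of -0.19. The gene that rose was Cyp8b1 (1.55 ± 0.17, adjusted p = 0.0261), a call that ended without null replicate 7 or 8. Apoa4 (1.73), Cyp7a1 (1.84) and Proc (-0.57) were next by p. Both null arrays lay below both control arrays for 11 of the 24, against 23.4% of all tested probe sets. Both lay above for 5, against 20.4%.

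**Figure D4:**
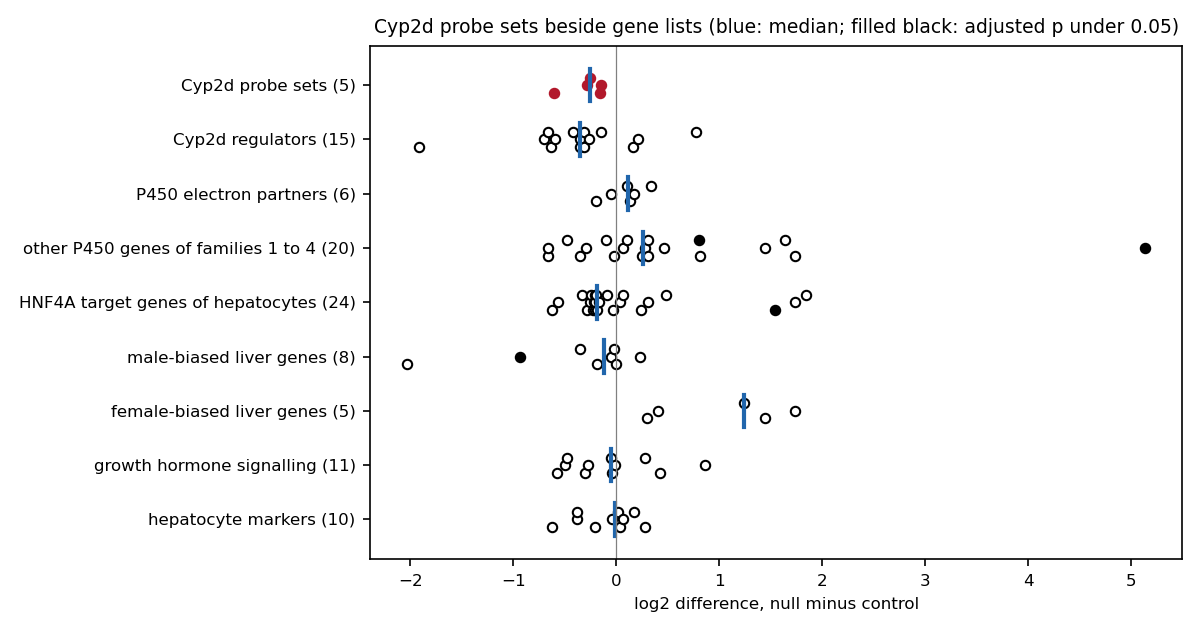
Log2 difference, null minus control, of the Cyp2d probe sets (red) and of the tested genes of 8 lists, with the number of points in brackets, the median as a blue bar and genes past the threshold filled in black. The Cyp2d probe sets lie between -0.61 and -0.15, and Cyp2b10 lies farthest right at 5.14.

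The probe sets most like each Cyp2d gene over the 4 arrays were found by the root mean square distance between log2 signals centred on their own mean. For Cyp2d26 these were Clcn3 (0.02), Scamp1 (0.02) and Zfp472 (0.03), and 11 singly named probe sets outside the family lay within 0.05. The Clcn3 probe set gave 25.7 and 24.6 on the null arrays, against 39.6 and 37.9 on the control arrays. The 3 other tested Clcn3 probe sets were at 0.07, 0.07 and 0.00 (log2 difference). The likeness of Clcn3 is thus that of 1 probe set and not of the gene. Another Scamp1 probe set was at -0.58, against -0.60 for the matched one. Zfp472 was dim, with 18.1 and 17.5 on the null arrays, against 27.1 and 25.1 on the control arrays. For Cyp2d10 on 101287_s_at the most alike were Sf3a2, Hif1a and Perp, at 0.02 each, with 105 probe sets within 0.05. Another Sf3a2 probe set was at 0.04 against -0.25 (log2 difference) for the matched one, and another Hif1a probe set at -0.22 against -0.27. For Cyp2d9 on 162174_at the most alike were Calm2 (0.07), Snhg6 (0.08) and Phf7 (0.11), with 0 within 0.05. Calm2 was dim, with 21.7 and 13.7 on the null arrays, against 10.4 and 28.6 on the control arrays. Another Phf7 probe set was at 0.45 against -0.07 (log2 difference) for the matched one. The match of Cyp2d9 was to probe sets that split the replicates in the same uneven way.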

How the data were processed

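Liver RNA was measured on 4 arrays, 2 null and 2 control. Per the labels, the authors computed the signal intensity of each probe set with GCOS from paired perfect match and mismatch oligonucleotides and then scaled each chip by its total fluorescence. No label gives the version of GCOS or its target value. A 2% trimmed mean was 100.1 on every array, and detection calls were not used. The table held 12488 probe sets, of which 66 control probe sets were left out.

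The deposited intensities were floored at the 25th percentile (7.1) and converted to log2, so differences of dim genes are understated. Probe sets with a mean above the 40th percentile (16.8) were tested with limma 3.58.1 in R 4.3.3 (lmFit, eBayes with an intensity trend), with genotype as the only term, two-sided, with Benjamini-Hochberg adjustment over 7241 probe sets and a threshold of 0.05. Of the degrees of freedom behind each test, 4.78 came from the pooled variance and 2 from the arrays. An exact permutation test of 2 against 2 arrays cannot go below 0.333 and is not given. P-values measure only the spread between these samples, which may be technical, and the number of arrays limits the precision. Symbols came from the platform annotation, updated through gene identifiers to GRCm38.p6 (10817 of 10833 singly named probe sets matched). A listed gene was represented by the brightest tested probe set that carried its symbol alone. Probe sets with several symbols were not used for the lists.

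The Cyp2d genes, the lists and the rule for named genes were chosen with earlier results of these data known. Named were all Cyp2d probe sets, all measured members of the lists of regulators, electron partners and growth hormone signalling, the genes past the threshold and up to 3 of smallest p in other gene lists, the 3 nearest tested genes on either side of the cluster and the 3 most alike probe sets per Cyp2d gene. For marker lists only the genes needed are named. The steps were tested on simulated data. The alternatives were other floors, a pseudocount of 16, other scalings, no filter, no trend, a replicate block and leaving out each array. Of the 5 promoter windows in the table for Cyp2d genes, aligned with Biopython 1.88, 3 are printed.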

Additional observations from a re-analysis of the deposited data

How the results depend on the processing

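The 4 bright Cyp2d probe sets kept their sign in all 11 settings tried per probe set. Since both null arrays lay below both control arrays, a floor, a pseudocount, a block or leaving out 1 array could not have reversed it. Only quantile normalization, median scaling and hepatocyte marker scaling could have done so. Floors at the 10th and 50th percentile and a pseudocount of 16 moved them by less than 1 SD between replicates. Quantile normalization gave -0.32 for 101287_s_at (Cyp2d10) and -0.21 for the shared 94539_f_at. Median scaling gave -0.36 for 101287_s_at, -0.32 for 98612_at (Cyp2d10), -0.23 for 94539_f_at and -0.68 for Cyp2d26. Scaling on hepatocyte markers, added after the data were seen, gave -0.18, -0.15, -0.052 and -0.50 in the same order. The shifts under median and hepatocyte marker scaling follow from the scaling itself. The median of all tested probe sets stood at -0.08 (median scaling) and 0.10 (hepatocyte markers), against -0.01 as reported. Under quantile normalization it stood at -0.02, and the cause of the shifts in that setting was not tested. Leaving out 1 array gave -0.30 to -0.27 for 101287_s_at, -0.30 to -0.21 for 98612_at, -0.18 to -0.13 for 94539_f_at and -0.66 to -0.56 for Cyp2d26, while Cyp2d9 on 162174_at ran from -0.86 to 0.56 and turned positive without null replicate 8 (0.18) or control replicate 8 (0.56). Its dim signal limits what can be said of Cyp2d9.

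Cyp2d26 passed the adjusted threshold in 6 of 13 alternatives. It did not pass in those that left out an array, nor with a floor at the 50th percentile, no filter or no intensity trend. Since the Cyp2d genes were chosen on this contrast, nothing is read from the Cyp2d26 count. Over all probe sets 22 were called higher and 6 lower, and in the fixed lists 4 higher and 1 lower. In limma the floor at the 50th percentile, no filter and no trend each gave 0 higher and 0 lower over all probe sets and 0 and 0 in the lists, against 446 higher and 468 lower at an unadjusted p under 0.05 with the reported settings. The cause was not tested. Quantile normalization gave 12 lower over all probe sets and 4 lower in the lists, and median scaling 2 lower in the lists. Without 1 array the counts were 10 to 13 higher and 0 to 4 lower over all probe sets, and 2 to 3 higher and 0 to 2 lower in the lists. With replicate number as a block, the counts were 37 higher and 15 lower over all probe sets, and 9 higher and 3 lower in the lists. Samples with the same number are known to share only that number. Their deviations from the group means correlated at -0.03 over probe sets. With 1 pair of arrays per genotype this value cannot decide whether they shared an experiment.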
